A study of Mus musculus with 7 samples.

Results

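The MYC network is the group of basic helix-loop-helix leucine zipper factors built around the shared partner MAX, together with the MAX-like protein MLX. Its 10 genes examined here, Myc, Mycn, Mycl, Max, Mga, Mxd1, Mxd4, Mxi1, Mnt and Mlx, were taken by their symbols from a table of gene counts. They are 10 of the 55484 genes listed, and all 10 were among the 16580 genes with enough counts to be tested. The RNA-seq libraries came from mouse embryonic fibroblasts (MEFs, n = 4), connective tissue cells grown from embryos, and from mouse embryonic stem cells (mESCs, n = 3). The latter are pluripotent cells derived from the early embryo and grown in culture. Both cell types carry the label C57/Bl6 background, and the labels give no treatment, transgene or culture condition that would separate the libraries within a cell type. The study set the expression of transcription factors in these cell types beside their accessible chromatin. It sorted THY1+ fibroblasts and THY1-/SSEA1+/EPCAM+ stem cells for its chromatin libraries. The extraction text of the RNA labels speaks of blood stem cells. Libraries are called O1 to O4 (MEF) and Y1 to Y3 (mESC) after the endings of their column names. The labels do not say whether they came from separate cultures, and the study calls its replicates biological but counts fewer MEF replicates than the table has MEF columns. The p-values measure the spread between these 7 libraries, part of which may be technical.

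MYC, MYCN and MYCL do not bind DNA as single proteins: each pairs with MAX, and the pair binds the E-box CACGTG and activates genes of growth, ribosome assembly and metabolism. MXD1, MXD3, MXD4, MXI1 and MNT compete for MAX, bind the same sites and bring in the SIN3 repressor. MGA is a large MAX partner that carries a second DNA-binding domain, a T-box, and holds together a Polycomb complex, PRC1.6, known in stem cells for silencing germline genes. MLX takes the place of MAX in pairs with MLXIP and MLXIPL, which respond to glucose. MYC proteins are short-lived, promote proliferation and are known for their place in stem cell self-renewal and in reprogramming.

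The MEF libraries held 6528643 to 11441278 counts and the mESC libraries 7462710 to 8193825. Levels are given as CPM, counts scaled to a common library size by edgeR's TMM method, and 3 counts, taken as the floor of a library, corresponded to 0.262 to 0.460 CPM. Of the 16580 genes tested, 47.9% differed between the cell types (quasi-likelihood test of edgeR, Benjamini-Hochberg adjusted p under 0.05), with 22.8% higher and 25.0% lower in mESCs. Scaling by library totals alone raised the median difference over all genes by 0.28 on the log2 scale and turned this split, from 3785 higher and 4153 lower to 5180 higher and 3345 lower. The cell types matched their labels: all 10 pluripotency markers were higher and all 12 fibroblast markers lower in mESCs. Pluripotency markers summed to 42.9 to 47.3 CPM in MEFs and 3372 to 3640 CPM in mESCs. Fibroblast markers summed to 25670 to 41810 CPM in MEFs and 190.3 to 229.4 CPM in mESCs. No gene of either list was at 0 in any library. Blood markers summed to 45.7 to 87.6 CPM in MEFs and 37.9 to 43.6 CPM in mESCs, with 1 of 8 tested higher and 4 lower in mESCs. In bulk RNA, fewer cells of a type and less RNA per cell cannot be told apart.

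The promoters of the network's own genes were read for the E-box, because the proteins the genes encode bind it. RefSeq promoters (250 bases before to 50 after the start site, GRCm38.p6) were matched by symbol for 9 of the 10 genes, all except Myc. CACGTG, which reads the same on both strands, occurred in the promoters of 4 of these 9 genes (44.4%), against 8.09% of all genes with a promoter and 11.3% of those tested. The motif contains a CpG (a C followed by a G). Promoters of the 9 genes held 14 to 49 CpG each, against medians of 7 over all promoters and 19 over those of tested genes. The shares were not matched for this. The windows below show each match in capitals. A match is a description of the letters and was not tested as a binding site.
Max (chr12:76962234-76962263, minus strand): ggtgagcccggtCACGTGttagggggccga
Mlx (chr11:101087238-101087267, plus strand): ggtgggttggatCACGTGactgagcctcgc
Mnt (chr11:74830789-74830818, plus strand): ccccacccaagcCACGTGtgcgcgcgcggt
Mxd4 (chr5:34187912-34187941, minus strand): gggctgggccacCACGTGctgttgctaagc
The match lay across the start site in Max (first base at -3) and further upstream in Mlx (-40), Mnt (-123) and Mxd4 (-219). These genes encode the common partner, its MAX-like counterpart and a pair of antagonists; the promoters of Mycn, Mycl, Mga and the other antagonists Mxd1 and Mxi1 held none in this window. Of the 4 genes, Mxd4 changed between the cell types, as described below.

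The Mycn promoter held another motif. Matches to the E2F sites TTTCCCGC, TTTCGCGC, TTTGCCGC and TTTGGCGC, searched on both strands, occurred 3 times within one stretch of Mycn, with the first and second match overlapping, and in no other promoter of the 9 genes. Such a match was present in 2.26% of all promoters and 3.82% of promoters of tested genes. The motif was chosen with the sequences known, so these shares are no independent measure. The matches were not tested as binding sites or for a part in the level of Mycn. The stretch is shown because Mycn had the largest change of the network, and the capitals mark the matched bases.
Mycn (chr12:12941985-12942031, minus strand): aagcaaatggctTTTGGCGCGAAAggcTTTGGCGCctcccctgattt
It spans -195 to -149 from the start site.

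Among the MYC genes, the stem cells and the fibroblasts expressed different members. Mycn was 20.4-fold higher in mESCs, Myc was 7.20-fold higher in MEFs, and Mycl was low in both, comparing mean CPM. Across the network, 5 of 10 genes passed the test, against 47.9% of all genes: 3 were higher in mESCs (Mycn, Mga and Mxi1; background 22.8%) and 2 were lower (Myc and Mxd4; background 25.0%). For 6 of the 10 genes, these and Mlx, all libraries of 1 cell type lay above all of the other, against 52.1% of all genes tested. The share that changed was therefore near the background, and the account below turns on which members changed.

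**Figure D1:**
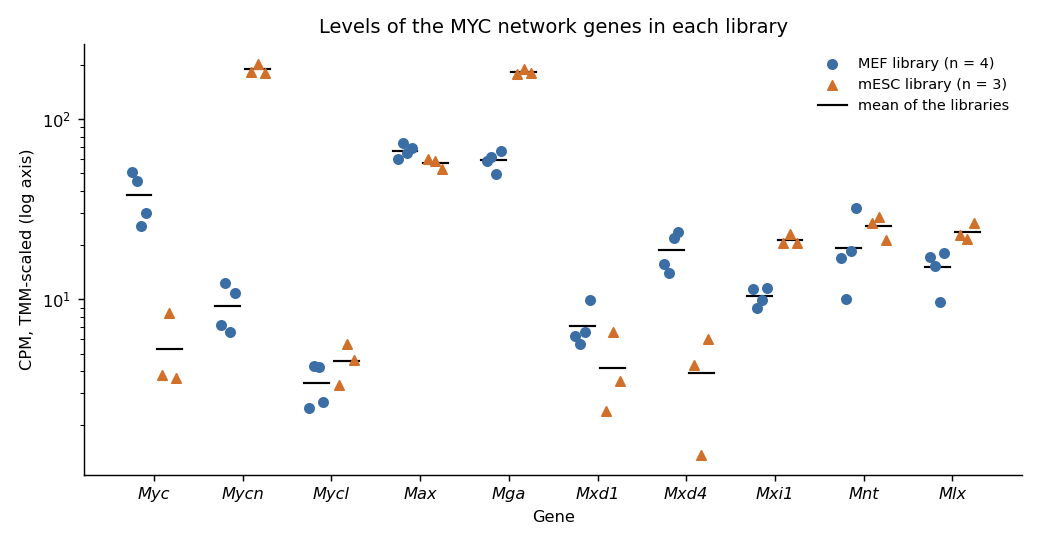
CPM (TMM-scaled, log axis) of each network gene in each library, with circles for the 4 MEF libraries, triangles for the 3 mESC libraries and a bar at the mean of each cell type. Mycn and Mga stand highest in mESCs, at means of 188.8 and 182.7 CPM, Myc and Mxd4 are lower in mESCs, and the points of Max overlap.

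Mycn (ENSMUSG00000037169, chr12:12936093-12941914, minus strand of GRCm38) encodes N-MYC, the MYC protein of early embryonic and neural progenitor cells. It had 75, 81, 55 and 68 counts in O1 to O4 and 1681, 1792 and 1531 counts in Y1 to Y3. After scaling these were 7.20, 12.3, 6.59 and 10.8 CPM in MEFs and 182, 204 and 181 CPM in mESCs. Every mESC library lay far above every MEF library, and the mESC libraries lay close to each other. Mycn rose by a log2 fold change of 4.36 ± 0.23 (SE; Benjamini-Hochberg adjusted p = 2.01e-07 in the quasi-likelihood test of edgeR, n = 4 and n = 3). The mean level in MEFs was 4.89% of that in mESCs, while the pluripotency markers stood in MEFs at 0.398% to 4.45% of their mESC levels, with a median of 0.650%. The part of stem-like cells in the Mycn counts of the MEF libraries was not tested.

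Myc (ENSMUSG00000022346, chr15:61985391-61990374, plus strand) encodes c-MYC, the widely expressed member induced by growth factors. Its counts were 530, 299, 213 and 190 in the MEF libraries and 35, 74 and 31 in the mESC libraries. These corresponded to 50.8, 45.6, 25.5 and 30.2 CPM in MEFs against 3.79, 8.41 and 3.66 CPM in mESCs. The cell types did not overlap. Within them, O1 and O2 lay above O3 and O4, and Y2 lay above Y1 and Y3. Myc was lower in mESCs by a log2 fold change of -2.85 ± 0.38 (SE; adjusted p = 0.000129, same test). Its mESC level was 13.9% of its MEF level, whereas fibroblast markers stood in mESCs at 0.412% to 16.6% of their MEF levels, with a median of 1.08%. Fibroblast markers summed to 229.4, 190.3 and 192.7 CPM in Y1, Y2 and Y3, and the part of fibroblasts in the Myc counts of the mESC libraries was not tested. Within the MEF libraries, O1 and O2 lay below both O3 and O4 for 8 of the 12 fibroblast markers and above both for 3, and the markers summed to 25670 and 29580 CPM in O1 and O2 and to 41810 and 33670 CPM in O3 and O4. The part of these differences in the spread of Myc was not tested.

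Mycl (ENSMUSG00000028654, chr4:122995652-123002485, plus strand), which encodes L-MYC, had 17 to 35 counts in the MEF libraries and 31 to 50 in the mESC libraries. Its levels were 2.49, 4.27, 4.19 and 2.70 CPM in MEFs and 3.36, 5.68 and 4.60 CPM in mESCs. The cell types overlapped. The log2 fold change of 0.41 ± 0.40 did not pass the test (adjusted p = 0.434, same test). At this depth a change of this size could not be told from the spread between libraries.

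The balance of the MYC genes was then taken within each library, where scaling plays no part. The log2 ratio of Myc to Mycn counts, with 0.5 added to each count, was 2.81, 1.88, 1.94 and 1.48 in O1 to O4 and -5.57, -4.59 and -5.60 in Y1 to Y3. It was positive in 4 of 4 MEF libraries and negative in 3 of 3 mESC libraries. The means were 2.03 ± 0.56 (SD, n = 4) and -5.25 ± 0.58 (SD, n = 3), and they differed by -7.28 (two-sided exact permutation test over 35 assignments, p = 0.0286, the smallest p this design allows). In unlogged terms, Myc counts were 2.79 to 7.07 times Mycn counts in MEFs, and Mycn counts were 24.2 to 49.4 times Myc counts in mESCs. Dividing by exon length shifts the log2 ratio by the same amount in every library, so the difference stays at -7.28 by construction.

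Mycn made up 11.9% of all Myc, Mycn and Mycl counts in O1 (exact Clopper-Pearson 95% interval 9.46% to 14.7%), 19.9% in O2 (16.1% to 24.1%), 18.2% in O3 (13.98% to 23.0%) and 24.7% in O4 (19.7% to 30.3%). It made up 96.2% in Y1 (95.2% to 97.1%), 93.5% in Y2 (92.3% to 94.6%) and 95.6% in Y3 (94.5% to 96.6%). These intervals cover counting error only. The lowest mESC share was well above the highest MEF share, and within each cell type some libraries, among them O1, O4 and Y2, lay outside the intervals of others. Mycl took 4.12% to 11.6% of the counts in MEFs and 1.77% to 2.61% in mESCs.

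**Figure D2:**
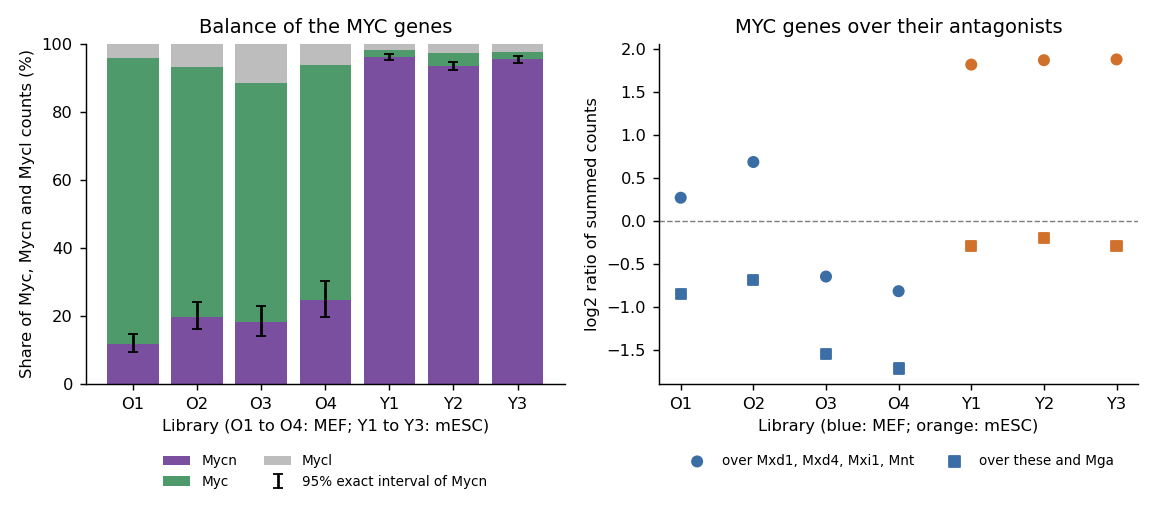
Left: share of Myc, Mycn and Mycl in their summed counts in each library (percent), with the exact 95% interval of the Mycn share; Mycn takes 11.9% to 24.7% in the MEF libraries O1 to O4 and 93.5% to 96.2% in the mESC libraries Y1 to Y3. Right: log2 ratio of the summed MYC gene counts to those of their antagonists in each library, with and without Mga among the antagonists; the mESC points lie above the MEF points in both, and with Mga every point lies below 0.

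Summed over the family, the exchange was not even. Myc, Mycn and Mycl together reached 50.7 ± 12.7 CPM (SD, n = 4) in MEFs and 198.6 ± 16.5 CPM (SD, n = 3) in mESCs. The lowest mESC sum, 188.9 CPM, was above the highest MEF sum, 62.2 CPM. By library totals alone the sums were 46.5 ± 10.99 and 221.8 ± 13.8 CPM.

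Max (ENSMUSG00000059436, chr12:76937269-76962201, minus strand) encodes the obligate partner of the MYC and MXD proteins. It had 59.9, 73.9, 64.7 and 69.3 CPM in MEFs and 60.4, 58.4 and 53.1 CPM in mESCs. The libraries overlapped, and the whole range across both cell types was from 53.1 to 73.9 CPM. The log2 fold change was -0.22 ± 0.15 (adjusted p = 0.251, same test) and became 0.06 (adjusted p = 0.784) with scaling by library totals alone, so that no direction can be given. Against Max, the summed counts of the MYC genes were 0.561 to 1.01 times as many in MEFs and 3.14 to 3.73 times as many in mESCs. These ratios compare counts of 3' libraries, not amounts of protein.

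Mga (ENSMUSG00000033943, chr2:119897228-119969581, plus strand), the MAX partner of PRC1.6, was the other member with a high level in stem cells. Its counts were 614, 402, 414 and 420 in MEFs and 1638, 1678 and 1525 in mESCs. It stood at 58.9, 61.3, 49.6 and 66.8 CPM in MEFs and at 177.5, 191 and 179.9 CPM in mESCs. The libraries of each cell type lay close together and the cell types did not overlap. Mga rose by a log2 fold change of 1.63 ± 0.15 (adjusted p = 8.07e-06, same test), 3.09-fold in mean CPM. In counts, Mga was 0.767 to 0.984 times Max in MEFs and 2.94 to 3.39 times Max in mESCs.

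The MXD group and MNT, which compete with MYC proteins for MAX, did not move together. Mxd4 (ENSMUSG00000037235, chr5:34173883-34187720, minus strand), an antagonist of differentiating cells, had 15.7, 14.02, 21.9 and 23.7 CPM in MEFs and 4.33, 1.36 and 6.02 CPM in mESCs. The lowest value, in Y2, came from 12 counts. All mESC libraries lay below all MEF libraries, and Mxd4 fell by a log2 fold change of -2.27 ± 0.45 (adjusted p = 0.00171, same test), 4.83-fold in mean CPM. An antisense gene, Gm42846, shares 6.06% of the exon bases of Mxd4 and had 0 counts in every library.

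Mxi1 (ENSMUSG00000025025, chr19:53310518-53375810, plus strand), the MXD2 protein, moved the other way. It had 11.4, 8.99, 9.95 and 11.6 CPM in MEFs and 20.6, 23.2 and 20.5 CPM in mESCs. The groups were tight and did not overlap. Mxi1 rose by a log2 fold change of 1.03 ± 0.22 (adjusted p = 0.00267, same test), and tested against a fold change of 2 it did not pass (adjusted p = 0.532).

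Mxd1 (ENSMUSG00000001156, chr6:86647042-86669161, minus strand), first known as MAD, had 6.24, 5.64, 6.59 and 9.86 CPM in MEFs and 2.38, 6.59 and 3.54 CPM in mESCs. Y2 lay within the MEF range while Y1 and Y3 lay below it. The log2 fold change of -0.76 ± 0.42 did not pass (adjusted p = 0.166, same test), and without Y2 it was -1.25 (adjusted p = 0.0469), which passed. Mnt (ENSMUSG00000000282, chr11:74830920-74845725, plus strand), the widely expressed antagonist, had 16.9, 10.1, 18.5 and 31.97 CPM in MEFs and 26.4, 28.5 and 21.4 CPM in mESCs. Its fibroblast libraries spread over a 3.18-fold range that took in all of the mESC values. The log2 fold change was 0.40 ± 0.33 (adjusted p = 0.360, same test).

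Summed, the antagonists Mxd1, Mxd4, Mxi1 and Mnt came to 55.8 ± 16.1 CPM (SD, n = 4) in MEFs and 55.0 ± 4.23 CPM (SD, n = 3) in mESCs, and to 51.6 ± 16.7 and 61.4 ± 3.44 CPM by library totals alone. The sums overlapped under either scaling. As a description of their make-up, Mxd4 took 30.7% to 38.5% of these counts in MEFs and 2.29% to 11.7% in mESCs, and Mxi1 took 15.1% to 23.2% in MEFs and 38.3% to 39.9% in mESCs. Mnt took 25.98% to 41.4% and 41.5% to 49.2%.

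The counts of the MYC genes were 1.204, 1.61, 0.638 and 0.567 times those of the antagonists in O1 to O4, and 3.52, 3.65 and 3.67 times in Y1 to Y3. On the log2 scale the means were -0.13 ± 0.72 (SD, n = 4) and 1.85 ± 0.03 (SD, n = 3). The fibroblast libraries lay on both sides of equality and the stem cell libraries lay close together above it. Where Mga was added to the antagonists, the means were -1.20 ± 0.51 and -0.26 ± 0.05, so that the MYC genes had fewer counts than the sum in every library. The ratio is a description over chosen genes and was not tested.

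Mlx (ENSMUSG00000017801, chr11:101087277-101092207, plus strand), the partner of the glucose-responsive factors, had 17.2, 15.4, 9.71 and 18.1 CPM in MEFs and 22.6, 21.7 and 26.5 CPM in mESCs. The cell types did not overlap, with 18.1 CPM as the highest MEF and 21.7 CPM as the lowest mESC value. The log2 fold change of 0.65 ± 0.25 missed the threshold (adjusted p = 0.0548, same test). It passed with DESeq2 (adjusted p = 0.0483), with DESeq2's size factors in edgeR (0.0485), by library totals alone (0.93, adjusted p = 0.0117) and without O4 (adjusted p = 0.0491). Psmc3ip, which encodes a meiotic recombination factor, lies on the opposite strand and shares 19.3% of the exon bases of Mlx. It was itself higher in mESCs (log2 fold change 1.18 ± 0.30, adjusted p = 0.00708, same test), and as the strand setting of the counting is not given in the sources used here, the counts of Mlx are uncertain.

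**Figure D3:**
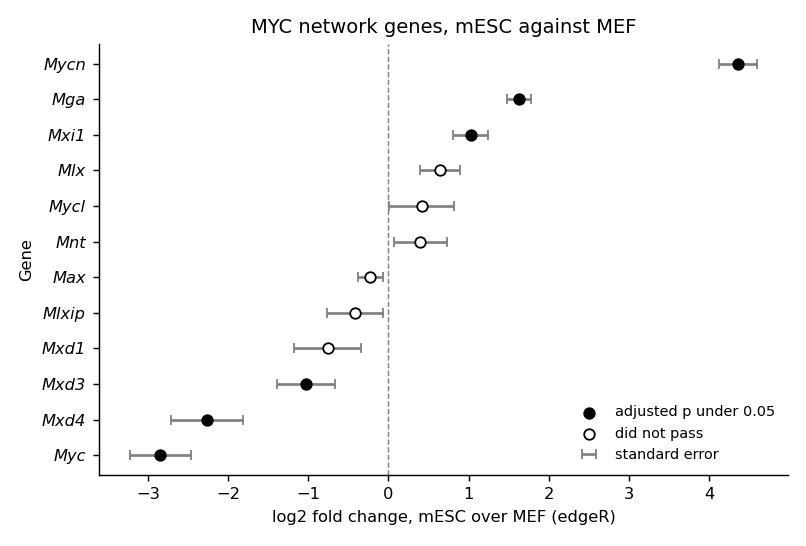
log2 fold change of mESC over MEF for the 10 network genes, Mxd3 and Mlxip, with bars for the standard error from edgeR; filled points have an adjusted p under 0.05. Mycn lies farthest to the right (4.36) and Myc farthest to the left (-2.85), with Max near 0.

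Close relatives outside the 10 genes were read in the same way. Mxd3, an MXD gene of dividing cells, had 6.84 to 9.78 CPM in MEFs and 2.50 to 5.07 CPM in mESCs (log2 fold change -1.03 ± 0.36, adjusted p = 0.0350, same test). This call was lost in 7 alternatives, among them library totals alone (-0.74, adjusted p = 0.112) and leaving out O1, O3, Y1 or Y2 (adjusted p = 0.0522 to 0.115). Mlxip, also called MondoA, had 8.15 to 19.4 CPM and 6.59 to 12.3 CPM (log2 fold change -0.42 ± 0.35, adjusted p = 0.367). Mlxipl, also called ChREBP, had 0 to 3 counts in the MEF libraries and 32, 3 and 13 counts in the mESC libraries and was not tested.

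Levels of different genes were set side by side per kilobase of exon and by plain CPM. In libraries primed at the poly(A) tail counts need not scale with length, so both orders are given. Per kilobase of exon, the order in mESCs was Mycn (57.3 ± 3.90 CPM per kb), Max (15.9 ± 1.05), Mga (11.9 ± 0.456), Mlx (11.8 ± 1.28), Mnt (5.50 ± 0.797), Mxi1 (3.14 ± 0.222), Myc (1.95 ± 0.995), Mycl (1.13 ± 0.288), Mxd1 (0.590 ± 0.307) and Mxd4 (0.460 ± 0.278) (SD, n = 3). The neighbours Mga and Mlx overlapped, as did each neighbouring pair from Mxi1 down, and the other neighbours did not. In MEFs the order was Max (18.6 ± 1.68 CPM per kb), Myc (14 ± 4.45), Mlx (7.55 ± 1.89), Mnt (4.18 ± 1.98), Mga (3.86 ± 0.467), Mycn (2.80 ± 0.846), Mxd4 (2.22 ± 0.553), Mxi1 (1.54 ± 0.182), Mxd1 (1.001 ± 0.268) and Mycl (0.846 ± 0.234) (SD, n = 4). Of these neighbours, Myc and Mlx alone did not overlap. By plain CPM the order in mESCs was Mycn, Mga, Max, Mnt, Mlx, Mxi1, Myc, Mycl, Mxd1 and Mxd4. In MEFs it was Max, Mga, Myc, Mnt, Mxd4, Mlx, Mxi1, Mycn, Mxd1 and Mycl. Overlap between neighbours was read per kilobase only. Mycn led in mESCs in both orders, and in MEFs it took place 6 per kilobase and place 8 by plain CPM. Myc took place 2 in MEFs per kilobase and place 3 by plain CPM, and place 7 in mESCs in both orders. Mga moved up to place 2 in both cell types by plain CPM, as its exons are the longest of the network (15.34 kb).

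The genes with the pattern most like those of Myc and Mycn were sought by Euclidean distance of log2CPM, centred on each gene's mean over the 7 libraries. Nearest to Myc were Dnajb4 (distance 0.572), which encodes a co-chaperone, Mex3b (0.631), which encodes an RNA-binding protein, and Apol9b (0.647). Nearest to Mycn were Zfp990 (0.411), the pseudogene Fabp3-ps1 (0.505) and Ap3b2 (0.544). Apol9b and Ap3b2 had mean levels of 1.85 and 0.336 CPM in MEFs and 0.112 and 10.1 CPM in mESCs, so that their likeness rests on few counts in the lower group. The measure takes in the size of the difference between the cell types as well as the spread within them.

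Genes that MYC is known to activate were more often higher than lower in mESCs. Of 77 listed genes of ribosome assembly, nucleotide and polyamine synthesis, transport and the cell cycle, 76 were tested: 43 were higher in mESCs (56.6%, background 22.8%), 8 were lower (10.5%, background 25.0%) and 25 did not pass. The median log2 fold change was 0.68, against 0.04 over all genes tested. By library totals alone 54 were higher and 8 lower, where 5180 and 3345 of all 16580 genes tested were. Ung, a DNA repair glycosylase, rose from 11.3 ± 3.35 to 85.7 ± 6.21 CPM (log2 fold change 2.92 ± 0.23, adjusted p = 2.93e-06). Exosc5, a subunit of the RNA exosome, rose from 28.8 ± 5.86 to 141.9 ± 7.77 CPM (2.30 ± 0.18, adjusted p = 2.99e-06). Ccnd2, which encodes cyclin D2, stood far apart on the other side, with 3506 ± 414 CPM in MEFs and 59.5 ± 4.66 in mESCs (-5.88 ± 0.16, adjusted p = 5.95e-09), and Ldha, which encodes lactate dehydrogenase A, fell from 2049 ± 60.3 to 633.5 ± 26.4 CPM (-1.69 ± 0.10, adjusted p = 4.11e-07). The E-box was in the promoters of 22 of the 67 genes of this list with a promoter (32.8%). The share was 8.09% over all genes with a promoter and 11.3% over those tested, not matched for CpG. This list was drawn up with knowledge of MYC binding.

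Genes that MYC is known to repress went mostly the other way. Of 15, 9 were lower in mESCs (60.0%, background 25.0%), 1 was higher (6.67%, background 22.8%) and 5 did not pass, with a median log2 fold change of -1.72. Cdkn1a, the cell cycle inhibitor p21, fell from 467 ± 62.7 to 172 ± 34.7 CPM (log2 fold change -1.44 ± 0.17, adjusted p = 5.86e-05). Cdkn1c, the imprinted inhibitor p57, had 705.6 to 2318 CPM in MEFs and 20.3 to 43.3 CPM in mESCs (-5.58 ± 0.53, adjusted p = 1.05e-05). Pdgfrb (-5.60 ± 0.24, adjusted p = 3.92e-08), a growth factor receptor, is also among the fibroblast markers. Itga6, a laminin receptor subunit known from stem cells, rose from 26.6 ± 2.54 to 108.0 ± 8.60 CPM (2.02 ± 0.15, adjusted p = 2.31e-06). By library totals alone 4 genes of the list were called higher, and with DESeq2 2 were. Over all genes, 5180 were called higher by library totals alone, 4327 with DESeq2 and 3785 in the main test. The cell type and its MYC gene go together in this design, so their parts in these differences cannot be told apart.

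Genes of the PRC1.6 complex, built on MGA, changed in both directions. Of 12 other subunits and associated genes, 6 were higher in mESCs (50%, background 22.8%), 3 were lower (25.0%, as over all genes) and 3 did not pass (median log2 fold change 0.70). Rybp, a RING1 partner, rose from 7.37 ± 3.06 to 26.9 ± 5.75 CPM (log2 fold change 1.85 ± 0.32, adjusted p = 0.000736), while its paralog Yaf2 fell from 54.5 ± 8.52 to 10.2 ± 2.77 CPM (-2.42 ± 0.24, adjusted p = 1.44e-05). L3mbtl2, a chromatin-binding subunit, rose from 12.9 ± 3.21 to 44.5 ± 5.78 CPM (1.79 ± 0.24, adjusted p = 0.00013). E2f6, the repressive E2F factor of the complex, fell from 15.8 ± 3.01 to 6.10 ± 1.76 CPM (-1.37 ± 0.31, adjusted p = 0.00364).

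Germline genes known as targets of this complex were higher in the mESC libraries, in which Mga was higher too. Of 12 listed, 9 were tested, and 8 were higher (88.9%, background 22.8%), 0 were lower (background 25.0%) and Tdrkh did not pass (edgeR, adjusted p = 0.328); the other 3, Taf7l, Slc25a31 and Tex101, had too few counts. At an unadjusted p under 0.05 (edgeR), and with DESeq2, 0 genes of this list were lower, as in the lists of coactivators and of MLX targets described further on. For the germline list that 0 is no check of the result, because it follows in part from the filter described next. Apart from Ddx4, the genes called had at most 15 counts in any MEF library. They entered the test through the mESC libraries alone and could only be called higher. The shares of higher and lower genes and the median given below follow in part from this filter and are a description only. Stra8, the retinoic acid target at the entry of meiosis, had 2, 0, 1 and 0 counts in MEFs and 151, 334 and 191 in mESCs, a ratio of 268.8 of the pooled scaled counts (95% counting interval 91.6 to 1307). Counting intervals of these genes cover counting error only, not the spread between libraries. Mael, a piRNA pathway gene, had 2, 0, 0 and 0 counts in MEFs and 46, 92 and 73 in mESCs, a ratio of 125.9 (34.4 to 1046). Meioc, a meiotic gene, had 0 to 15 counts in MEFs and 144 to 163 in mESCs, a ratio of 23.7 (15.6 to 37.8). Ddx4, the germ cell RNA helicase, was the least changed of the 8, at 2.21 to 6.11 CPM in MEFs and 18.3 to 25.6 CPM in mESCs (log2 fold change 2.54 ± 0.35, adjusted p = 0.000165, edgeR). The median log2 fold change of the 9 was 5.42, and 5.63 from pooled counts with each MEF total held at 3 or more. In absolute terms the mESC means of the 8 genes were low, from 6.65 CPM (Sycp3) to 27.1 CPM (Dazl). The E-box, which the MGA and MAX pair binds, was in the promoters of 7 of the 12 (58.3%), and 3 of these are shown for their match in capitals.
Ddx4 (chr13:112652322-112652351, minus strand): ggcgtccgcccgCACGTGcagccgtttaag
Mael (chr1:166238950-166238979, minus strand): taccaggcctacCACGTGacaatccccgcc
Stk31 (chr6:49395472-49395501, plus strand): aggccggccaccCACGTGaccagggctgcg
The share with an E-box was 8.09% over all genes with a promoter and 11.3% over those tested, not matched for CpG. The germline list was drawn up with knowledge of binding by the complex, so its share is no independent measure.

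**Figure D4:**
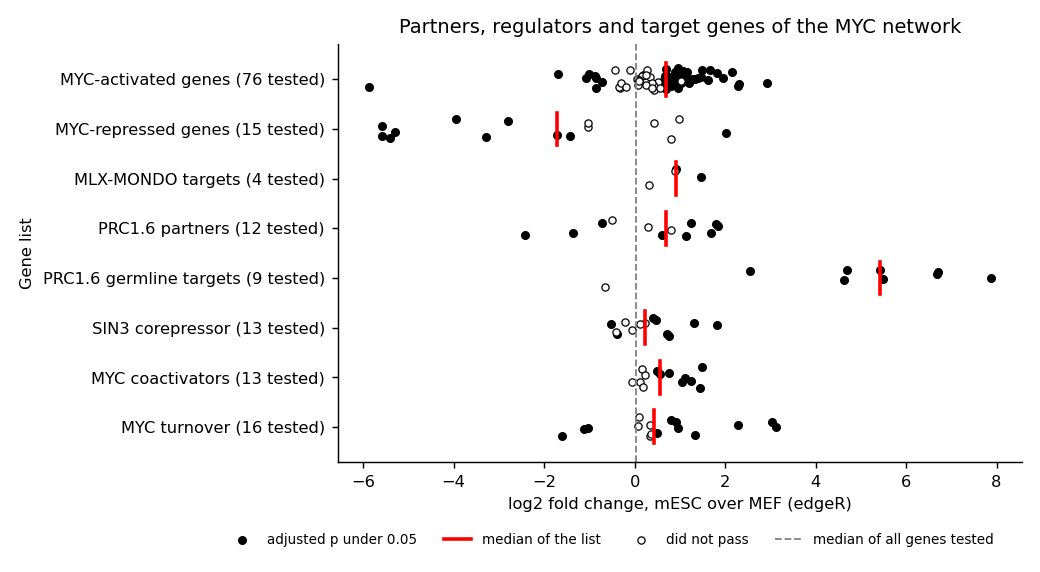
log2 fold change of mESC over MEF for each tested gene of 8 lists of partners, regulators and targets of the network, with filled points for an adjusted p under 0.05 (edgeR), a red bar at each list's median and a dashed line at the median of all genes tested (0.04). The germline targets lie farthest to the right (median 5.42), and the MYC-repressed genes lie farthest to the left (median -1.72).

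Of the proteins that work with MYC on chromatin, 8 of 13 tested coactivator genes were higher in mESCs (61.5%, background 22.8%) and 0 were lower (background 25.0%), with a median log2 fold change of 0.57. Actl6a, a subunit of histone acetylase and remodelling complexes, rose from 25.4 ± 4.05 to 71.2 ± 2.38 CPM (log2 fold change 1.49 ± 0.17, adjusted p = 4.70e-05), and the helicase gene Ruvbl2 from 4.36 ± 1.72 to 11.9 ± 1.49 CPM (1.43 ± 0.37, adjusted p = 0.00883). The smallest changes that passed were those of Bptf (0.49 ± 0.15, adjusted p = 0.0177) and Ep400 (0.57 ± 0.17, adjusted p = 0.0196), remodelling subunits whose calls were lost when Y1 (Bptf, adjusted p = 0.0716) or Y2 or Y3 (Ep400, 0.0608 and 0.0515) was left out. Wdr5 is in this list and in that of PRC1.6.

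The SIN3 corepressor, which the MXD proteins bring to DNA, had 6 of 13 tested genes higher (46.2%, background 22.8%) and 2 lower in mESCs (15.4%, background 25.0%), with a median log2 fold change of 0.23. Sap30 (12.4 ± 2.11 against 43.9 ± 14.7 CPM, log2 fold change 1.82 ± 0.26, adjusted p = 0.000176) and the scaffold Sin3a (34.8 ± 4.202 against 86.9 ± 8.22 CPM, 1.32 ± 0.16, adjusted p = 6.74e-05) rose. The deacetylase Hdac2 (-0.52 ± 0.15, adjusted p = 0.0137) and the histone chaperone Rbbp7 (-0.39 ± 0.13, adjusted p = 0.0267) were lower, and both calls were lost by library totals alone (adjusted p = 0.2 and 0.539). The call of Rbbp7 was also lost without Y2 (adjusted p = 0.108) or Y3 (adjusted p = 0.0586).

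Among 16 genes that set the stability of MYC proteins, 8 were higher (50%, background 22.8%) and 3 lower in mESCs (18.8%, background 25.0%), with a median log2 fold change of 0.43. The list mixes genes whose products protect MYC with genes whose products lead to its degradation. These counts therefore give no direction for the stability of MYC proteins, which was not measured. The deubiquitinase gene Usp28, whose product protects MYC, rose from 3.96 ± 0.790 to 34.4 ± 12.4 CPM (log2 fold change 3.12 ± 0.31, adjusted p = 1.55e-05). The kinase gene Pim3 rose from 21.4 ± 8.09 to 177.4 ± 20.1 CPM (3.04 ± 0.27, adjusted p = 7.09e-06). The kinase gene Gsk3b, whose product marks MYC for degradation, fell from 318.5 ± 37.1 to 145.9 ± 9.30 CPM (-1.13 ± 0.14, adjusted p = 9.22e-05), and the ubiquitin ligase gene Trim32 from 32.5 ± 6.80 to 10.7 ± 3.39 CPM (-1.60 ± 0.27, adjusted p = 0.000648). Of the other ubiquitin ligase genes called, Huwe1 (0.81 ± 0.14, adjusted p = 0.000902, edgeR) and Skp2 (0.50 ± 0.16, adjusted p = 0.0268) were higher. Stub1 (-1.03 ± 0.34, adjusted p = 0.0279) was lower. Fbxw7, the ligase that reads the mark of GSK3, did not pass.

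Of the targets of the MLX and MondoA arm, 2 of 4 tested were higher in mESCs (background 22.8%) and 0 were lower (background 25.0%), with a median log2 fold change of 0.90. With 4 genes, these counts cannot be told from the background. Txnip, an inhibitor of glucose uptake, had 30.5, 36.6, 62.1 and 60.6 CPM in MEFs and 105.5, 177.0 and 111.0 CPM in mESCs (log2 fold change 1.47 ± 0.28, adjusted p = 0.00146), and its paralog Arrdc4 had 19.97 to 38.1 and 41.8 to 57.5 CPM (0.91 ± 0.24, adjusted p = 0.0102). For both genes every mESC library lay above every MEF library.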

How the data were processed

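Gene counts of 4 MEF and 3 mESC 3' RNA-seq libraries with molecular identifiers were used. The authors aligned reads to mm10 with STAR (2.4.2a in the submitters' processing notes), collapsed identifiers with Je, counted exonic reads with featureCounts and deposited whole-number counts without normalization. The methods of the study name another version of STAR. The annotation release and strand setting are not given in the sources used here. No column of sample values was left unused.

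Here counts were scaled by TMM and tested over all 7 libraries with edgeR 4.0.16 (limma 3.58.1, R 4.3.3; filterByExpr, quasi-likelihood test, Benjamini-Hochberg adjustment over all genes tested, threshold 0.05), with the SE as the absolute log2 fold change divided by the square root of F. log2CPM used a prior count of 2. The code was tested on simulated data. The members, gene lists and tests were chosen with earlier results of these data known, and the E2F motif with the sequences known. Named were all members, Mxd3, Mlxip and Mlxipl, in each list the 2 called genes at either end of the log2 fold changes, and the 3 genes nearest to Myc and to Mycn. Genes named outside this rule (Psmc3ip, Gm42846, Tdrkh, Taf7l, Slc25a31, Tex101, Sycp3, Dazl, Stk31, Wdr5, Huwe1, Skp2, Stub1 and Fbxw7) were chosen after their values were seen. Coordinates and exon lengths are from GENCODE M21 on GRCm38. Alternatives were DESeq2 1.42.0, its size factors, library totals alone, 2 other filters, a test against a fold change of 2, other pseudocounts and each library left out in turn. Exon length was also applied to the ratio of Myc to Mycn, where it cannot change the difference between the cell types.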

Additional observations from a re-analysis of the deposited data

Results flagged for a closer look

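Of 46 groups of 4 MEF libraries examined, 4 held a library far from the other 3 by Dixon's criterion at the 95% level, where chance gives about 1 in 20 groups, or 2.3 here. None was a member of the network. Pdgfrb had 6.61 log2CPM in O1 and 6.93 to 6.99 in the other MEF libraries. L3mbtl2 had 3.07 log2CPM in O3 and 3.78 to 3.92 in the others. Mael had -1.21 log2CPM in O1, from 2 counts, and -2.05, the value of 0 counts, in the others. Gsk3b had 8.04 log2CPM in O2 and 8.39 to 8.41 in the others. Pdgfrb, L3mbtl2 and Gsk3b kept their direction and their adjusted p under 0.05 with any library left out (edgeR). Mael entered the test through the mESC libraries alone and could only be called higher, so its refits are no check.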

How the results depend on the processing

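No paired analysis was possible because the count columns do not carry the replicate numbers of the samples. Tested against a fold change of 2, 3991 genes passed in place of 7938, with 1714 higher and 2277 lower in mESCs, and 4 of the 10 members. Max turned from -0.22 to 0.056 by library totals alone. MYC-repressed genes called higher went from 1 to 4 by library totals alone and 2 with DESeq2, and SIN3 genes called lower from 2 to 0 by library totals alone. Over all genes, those called higher went from 3785 to 5180 by library totals alone and 4327 with DESeq2. Those called lower went from 4153 to 3345 by library totals alone. The difference in the log2 ratio of Myc to Mycn was -7.61 to -7.02 with each library left out (exact permutation p = 0.0667 to 0.1, the smallest those designs allow). The log2 ratio of MYC genes to antagonists was -1.20 in MEFs and -0.26 in mESCs with Mga among the antagonists. Of 130 refits of the members, 123 kept their direction and their side of the threshold; the others were Max, Mlx (4), Mxd1 and Mxi1. Members called were 4 to 6 in all settings. Of 416 refits of other named genes, 391 kept theirs and 25 lost the call. The refits of Mael, Meioc and Stra8 are among them, and these genes could only be called higher. With 12 to 50 counts a library for Mycl and the lowest values of Mxd1 and Mxd4, counting error limits what can be seen there.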

Other observations

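Markers of other cell types were listed for both cell types. Over all genes tested, 22.8% were higher and 25.0% lower in mESCs. With so few genes in a list, the counts below are a description only. Of 4 endothelial markers tested, Pecam1, which stem cells also express, was higher in mESCs, and the sums were 16.9 to 26.1 CPM in MEFs and 31.6 to 55.2 CPM in mESCs. Of 5 epithelial markers tested, Cdh1 was higher and Krt18 lower in mESCs, with sums of 106.3 to 132.8 and 159.5 to 196.4 CPM. Of 3 muscle markers tested, Acta1 was lower (23.0 to 29.6 and 12.6 to 20.7 CPM). Of 4 neural markers tested, 3 were lower (168.3 to 292.8 and 53.9 to 64.3 CPM). Among the MEF libraries, O1 and O2 lay above both O3 and O4 for 2 of 5 neural markers and below for 0, and for 1 and 5 of 9 blood markers. These genes were named after their values were seen, and their part in the levels of the network was not tested.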
